A study of Arabidopsis thaliana with 6 samples.

Results

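R2R3 MYB genes encode one of the largest families of plant transcription factors. Each protein binds DNA through a pair of adjacent MYB repeats, R2 and R3, near its N-terminus, and the rest of the protein differs between subgroups. Members switch on or repress programmes that many plant cells do not use at all: suberin and wax synthesis, lignin and the secondary wall, flavonoid pigments, glucosinolates (sulphur-containing defence compounds), pollen and anther development, and root hairs or trichomes. H3K27me3, trimethylation of lysine 27 of histone H3, is set by Polycomb complexes and lies over the bodies of genes that are kept silent in a tissue. BRAHMA (BRM) is the ATPase of a SWI/SNF complex, which uses ATP to move or evict nucleosomes, and SWI/SNF ATPases are known for opposing Polycomb repression.

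The genes described here are the 114 protein-coding genes whose symbol in the TAIR10.1 annotation is MYB followed by a number, out of 37899 annotated nuclear genes, 27444 of them protein-coding. A further 2 genes with such a symbol were left out by the selection. The members were selected by symbol, but the family itself was chosen on earlier values of these same libraries, both the ratio to input and the comparison of genotypes. Counts of its members are therefore descriptions, and the share of all genes beside each count is background from which nothing is read about the family. Subgroup numbers (S1 to S25) and roles are general knowledge of the family and were not measured.

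H3K27me3 was profiled by ChIP-seq in whole 14-day-old Arabidopsis seedlings. The brm plants carry the T-DNA allele brm-1, which is a null, and were compared with wild type (wt) of the Col accession. Each genotype had 2 H3K27me3 libraries, from independent biological samples, and 1 input library of sonicated chromatin without immunoprecipitation. Whole seedlings mix root and shoot cell types, so a partial level cannot be told apart from the mark in only some of the cells.

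The brm H3K27me3 libraries held 9593473 and 8408612 uniquely mapped reads, against 8563827 and 9051298 in wt, and the inputs held 5676681 reads in brm and 6342835 in wt. Duplicates were common: distinct positions were 28.3% and 38.2% of the reads in the brm H3K27me3 libraries and 27.9% and 23.4% in the wt libraries. The inputs had 80.03% in brm and 68.9% in wt. Brm replicate 2 therefore held the largest share of distinct reads of the 4 H3K27me3 libraries. The part of this difference in the values below was not tested, except that each comparison of genotypes was also run with 1 read per position and strand. A T-DNA insertion leaves the gene's own sequence in place, so reads over BRM do not check the genotype labels.

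Values over genes are RPM: reads whose shifted position fell in the gene span, per 1000000 nuclear reads of the library. The level of the mark is given as the log2 ratio of H3K27me3 RPM to the RPM of the input of the same genotype, which removes gene length. A gene was called over input at an adjusted p of 0.05 and at least 2-fold (edgeR quasi-likelihood test of the 4 H3K27me3 libraries against both inputs, Benjamini-Hochberg adjustment over all genes). It was called marked where H3K27me3 regions found in both replicates covered at least 50% of its span.

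The finding that the family turns on concerns the suberin regulator MYB53. Its H3K27me3 was lower in brm, at the level of the input, while its closest relatives stayed marked. In wt it already had fewer H3K27me3 reads than any of them. MYB53 (AT5G65230, chr5:26068112-26069652, plus strand), MYB92 (AT5G10280, chr5:3232569-3234277, plus strand) and MYB93 (AT1G34670, chr1:12709090-12710665, plus strand) form subgroup S24 with MYB39. Their first coding exons, which run from the start codon into the R2 repeat, are shown to let the paralogs be compared base by base. They span chr5:26068290-26068422, chr5:3232776-3232908 and chr1:12709128-12709260, all on the plus strand (RefSeq, TAIR10.1), and capitals mark the bases identical in all 3 genes.
MYB53: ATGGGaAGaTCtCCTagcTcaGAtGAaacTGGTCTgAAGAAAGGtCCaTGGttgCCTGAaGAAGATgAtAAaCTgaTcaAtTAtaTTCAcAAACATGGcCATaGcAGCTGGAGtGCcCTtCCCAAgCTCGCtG
MYB92: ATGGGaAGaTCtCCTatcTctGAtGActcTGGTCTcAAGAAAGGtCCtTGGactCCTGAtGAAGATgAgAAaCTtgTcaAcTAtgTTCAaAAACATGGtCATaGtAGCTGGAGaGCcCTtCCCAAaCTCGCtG
MYB93: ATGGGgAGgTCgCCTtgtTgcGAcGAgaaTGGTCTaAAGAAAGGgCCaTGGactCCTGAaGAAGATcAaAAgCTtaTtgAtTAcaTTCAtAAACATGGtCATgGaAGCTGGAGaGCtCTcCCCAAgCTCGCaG

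The exons are 133 bases each, and 95 of these bases are identical in all 3. MYB92 matched MYB53 at 85.0% of positions and MYB93 at 77.4%. The identical bases are scattered, with no shared run in all 3 exons longer than 8 bases. Over whole gene spans the longest run that MYB53 shares with another member is 37 bases, with MYB92, which is as long as 1 read. The next longest is 21 bases, with MYB68. Of the possible 37-base reads over MYB53 and over MYB92, 99.9% occur at 1 place in the genome, so reads could be told apart between the paralogs. Across the family 88 members had only unique positions, and the lowest share was 94.6%, at the anthocyanin regulator MYB90.

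MYB53 had 11.05 and 10.3 RPM in the brm libraries, against 39.9 and 39.3 RPM in the wt libraries. The inputs had 12.2 RPM in brm and 12.6 RPM in wt. Both brm libraries thus lay at the level of the input, and both wt libraries lay far above it, with no overlap. The log2 ratio to input was -0.14 and -0.23 in brm, against 1.66 and 1.63 in wt. Input level is not the level of unmarked genes, since members under input had a median of -2.58 in brm. The brm values at MYB53 lay above that median, so a complete loss of the mark is not shown. The log2 fold change was -1.89 ± 0.31 (SE, n = 2 libraries a genotype), with an adjusted p of 0.00826 over all genes tested (edgeR quasi-likelihood test). H3K27me3 regions covered 0% of the gene in brm and 96.6% in wt. Counting 1 read per position and strand, the log2 fold change was -1.39 (adjusted p = 0.00282, edgeR). The call depended on both brm libraries in the fit with all reads: the adjusted p was 0.0863 without brm replicate 1 and 0.106 without brm replicate 2 (edgeR), with log2 fold changes of -1.94 and -1.84. The fit with 1 read per position and strand called the gene with each of the 4 libraries left out in turn.

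The other S24 genes kept the mark. MYB92, also a suberin regulator, had 121 and 128 RPM in brm, against 144 and 151 RPM in wt, over inputs of 17.4 RPM in brm and 14.5 RPM in wt. MYB93, which acts in root endodermis, had 97.7 and 95.7 RPM in brm and 88.5 and 88.3 RPM in wt. MYB39, a further suberin regulator (AT4G17785), had 88.1 and 98.4 RPM in brm, against 115 and 112 RPM in wt. All 3 stood several times over their inputs in every library and were fully covered by H3K27me3 regions in both genotypes. Their log2 fold changes were -0.25 ± 0.16 for MYB92, 0.13 ± 0.17 for MYB93 and -0.28 ± 0.17 for MYB39, none of which passed the test (adjusted p = 0.769, 0.925 and 0.736, edgeR). The libraries of the genotypes did not overlap at any of the 3, with brm lower at MYB92 and MYB39 and higher at MYB93. Of all genes tested and marked in a genotype, 24.3% lay wholly lower in brm and 17.9% wholly higher. MYB53 started from a lower level in wt, with 39.9 and 39.3 RPM. The difference in change between MYB53 and these genes was not tested.

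**Figure D1:**
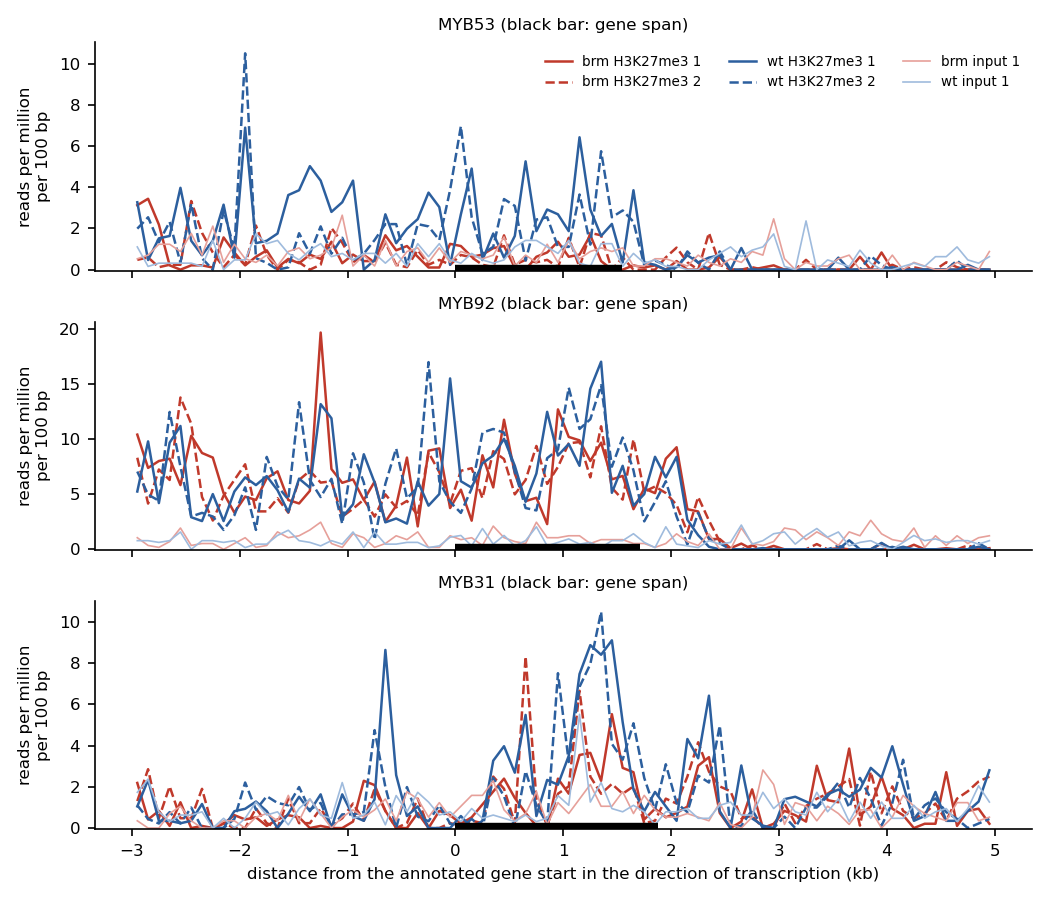
RPM per 100 bp against distance from the annotated gene start (kb), in the direction of transcription, for MYB53, MYB92 and MYB31, with a line for each library and a black bar for the gene span. Over MYB53 the brm lines run with the inputs and the wt lines above them, while over MYB92 all 4 H3K27me3 lines stand over the inputs.

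The decrease at MYB53 was not confined to the gene. In wt a region of 5600 bp, chr5:26064001-26069600, ran from upstream of the gene almost to its end, and brm had no region there. Between 2 kb and 1 kb upstream of the gene start, the brm libraries had 5.63 and 7.49 RPM per kb, against 34.2 and 18.5 RPM per kb in wt and inputs of 8.63 in brm and 9.77 in wt. In the first kb upstream they had 7.40 and 4.99 RPM per kb, against 20.2 and 16.9 in wt. The genotypes did not overlap in either interval, and the brm libraries lay at or near the input. From 1000 to 1500 bp inside the gene the brm libraries had 6.88 and 10.2 RPM per kb, against 30.1 and 28.5 RPM per kb in wt. From 2500 to 3500 bp, beyond the gene, they had 0.313 and 0.595 RPM per kb in brm and 1.05 and 0 in wt, so neither genotype carried the mark there.

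The upstream stretch belongs to AT5G65225, a protein-coding gene that ends inside the start of MYB53, so that some reads were counted for both. It had 40.8 and 35.9 RPM in brm, against 97.9 and 86.3 RPM in wt, with inputs of 49.7 in brm and 39.7 in wt. Its log2 fold change was -1.26 ± 0.20 (adjusted p = 0.0077, edgeR), and regions covered 0% of it in brm and 78.7% in wt. AT5G65225 is no member and was named for this overlap after its values were seen. Which of these genes the marked region served was not tested.

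Across the 113 members that passed the low-count filter, MYB53 was the only one called lower in brm, and 0 were called higher (edgeR, adjusted p of 0.05). Of all 30906 genes tested, 0.0971% were called lower and 0.0777% higher. At an unadjusted p under 0.05, 7 members were lower (6.19%, against 4.53% of all genes tested) and 3 higher (2.65%, against 3.21%). DESeq2 called 1 lower and 0 higher, against 0.307% and 0.396% of all genes. MYB58, the member left out by the filter, is described with the lowest levels. With 1 read per position and strand, 102 members were tested and 2 were called lower, MYB53 and MYB31, and 0 higher, against 0.511% and 0.557% of 19751 genes. With the input ratio as an offset, 5 members were called lower and 2 higher, against 1.42% and 0.524% of all genes. Without wt replicate 1, 4 were called lower and 0 higher, against 1.93% and 0.825% of all genes. Without wt replicate 2, 3 were called lower and 1 higher, against 0.779% and 0.579%. Without either brm library, 0 were called. These settings moved the count of calls over all genes as well as over the members.

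The median log2 fold change over the members was -0.11 and lay between -0.14 and -0.08 when each brm library was set against each wt library (4 pairs). The median over all genes tested was -0.05. Of the members, 73 had a log2 fold change below 0 and 40 above. Among the 74 members over input the values were closer together, from -0.86 at MYB31 to 0.46 at MYB108, with a median of -0.10. The median of all 6856 genes over input was -0.07. Replicates of these 74 differed by a median of 0.134 in brm and 0.174 in wt on the log2 scale. The 25 members under input, with few reads, differed by 0.735 in brm and 0.834 in wt, so fold changes of marked members were far better measured. The widest fold change, 2.47 ± 0.87 at MYB73, a stress and auxin response factor, came from an unmarked gene with 6.88 and 4.40 RPM in brm and 0.3503 and 1.66 RPM in wt, below inputs of 13.6 in brm and 17.3 in wt.

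**Figure D2:**
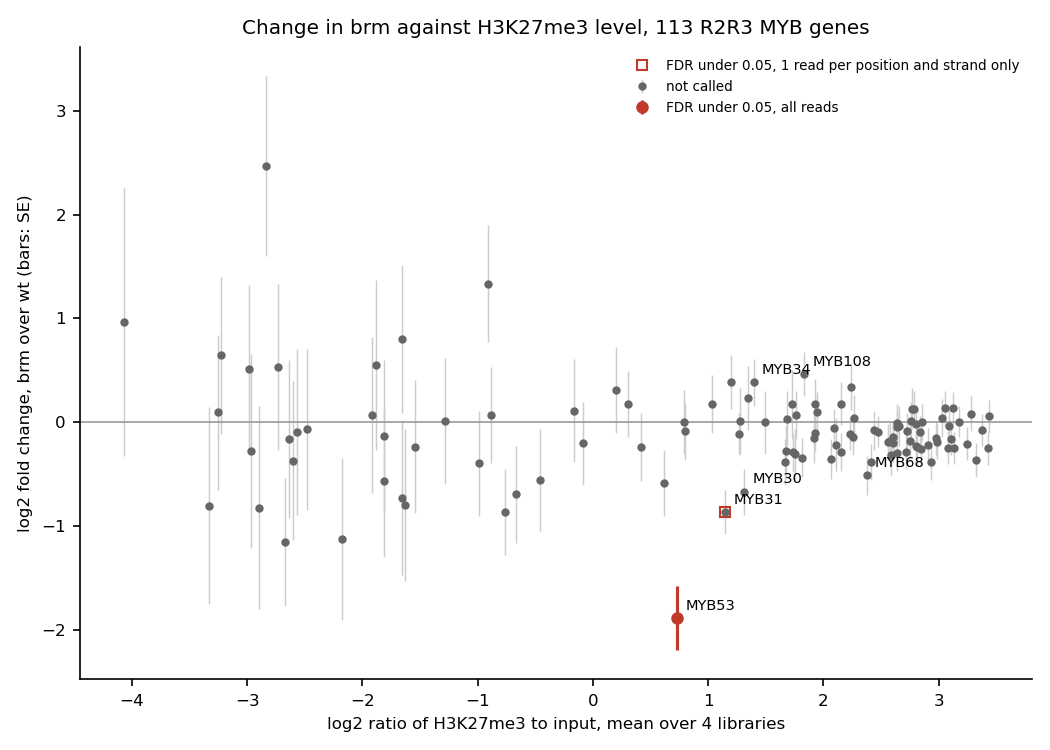
Log2 fold change of brm over wt (y axis, bars show the SE) against the mean log2 ratio of H3K27me3 to input over the 4 libraries (x axis), 1 point for each of the 113 members tested. MYB53 lies at -1.89, far below the other members near or above the input level, and the spread widens towards genes with little H3K27me3.

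Both brm libraries lay below both wt libraries at 38 of the 113 members (33.6%, against 20.2% of all genes tested) and above both at 9 (7.96%, against 17.4%). Of the 77 members marked in at least 1 genotype, 30 lay wholly below wt in this way (39.0%, against 24.3% of all marked genes tested) and 5 wholly above (6.49%, against 17.9%). Nothing is read from these shares, since the family was chosen with these libraries known. The largest differences among these are given next.

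MYB31 (AT1G74650, chr1:28041146-28043022, plus strand), a regulator of cuticular wax, had 34.4 and 36.0 RPM in brm, against 67.8 and 60.3 RPM in wt. Its inputs had 22.7 RPM in brm and 20.02 RPM in wt. The brm libraries stood above input by 0.59 and 0.66 on the log2 scale and the wt libraries by 1.76 and 1.59, so the gene kept a reduced level. The log2 fold change was -0.86 ± 0.22, with an adjusted p of 0.175 with all reads. Counting 1 read per position and strand, it was -1.07, with an adjusted p of 0.00209 (edgeR). This call held with each of the 4 libraries left out in turn. The fit with all reads passed with the input ratio as an offset (adjusted p = 0.0139) and with a replicate block (0.0337, edgeR). Those settings called 1.42% and 0.304% of all genes lower, against 0.0971% in the main fit. MYB31 did not pass with TMM scaling, DESeq2, no low-count filter, 500 bp flanks or no shift. With 1 library left out, the call depended on which library it was. Regions covered 86.4% of the gene in both genotypes, so MYB31 counted as marked in brm as well.

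Reads over MYB31 were unevenly spread along the gene, in the inputs too. From 1000 to 1500 bp after its start the brm libraries had 33.4 and 30.0 RPM per kb, against 74.7 and 65.2 RPM per kb in wt, with inputs of 12.7 in brm and 22.1 in wt. From 500 to 1000 bp they had 9.38 and 23.5 RPM per kb in brm and 26.4 and 23.2 in wt, with inputs of 8.46 in brm and 6.62 in wt. In the first 500 bp they had 12.1 and 10.2 RPM per kb in brm and 16.3 and 8.84 in wt, with inputs of 14.8 in brm and 5.68 in wt. In RPM per kb the genotypes were separate from 1000 to 1500 bp, where the input was also higher in wt, and overlapped elsewhere in these intervals. The intervals were not compared relative to input. The brm replicates differed in where their reads lay, with 24.8% and 45.2% in the first 5 of 10 parts, against 30.1% and 17.9% in wt and 47.3% and 22.8% in the brm and wt inputs.

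MYB31 belongs to S1 with MYB30, MYB60, MYB94 and MYB96. MYB30, which acts in pathogen-triggered cell death and very-long-chain fatty acid synthesis, had 41.1 and 37.1 RPM in brm, against 70.4 and 53.9 RPM in wt. MYB96, which links drought and abscisic acid to wax synthesis, had 114.24 and 100.02 RPM in brm, against 121 and 159 RPM in wt. MYB94, which acts with MYB96 on wax, had 104 and 111 RPM in brm, against 113.5 and 109 RPM in wt. The genotypes did not overlap at MYB30 and MYB96 and overlapped at MYB94. Log2 fold changes were -0.67 ± 0.22 for MYB30, -0.38 ± 0.18 for MYB96 and -0.05 ± 0.17 for MYB94 (adjusted p = 0.447, 0.624 and 0.981, edgeR). MYB30 passed only without wt replicate 2 and MYB96 only without wt replicate 1. In each case the library left out was the wt library nearer to brm, and wt then rested on 1 library. Nothing is read from those fits. MYB60, a guard cell regulator of stomatal opening, was the S1 gene not over input. It had 7.09 and 9.75 RPM in brm and 17.0 and 10.2 RPM in wt, over inputs of 17.8 in brm and 15.6 in wt, with a log2 fold change of -0.69 ± 0.47 (adjusted p = 0.785).

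The 250 bases before the start of MYB30, MYB94 and MYB96 are shown because these S1 genes share a stretch of sequence there, and because they hold motifs that have been linked to recruitment of Polycomb complexes in Arabidopsis. Windows are from RefSeq, TAIR10.1, read in the direction of the gene: MYB30 at chr3:10910882-10911131 on the plus strand, MYB94 at chr3:17541308-17541557 and MYB96 at chr5:25081142-25081391 on the minus strand. Capitals mark a telobox (AAACCCTA) in MYB30 and GA repeats (GAGAGAGA) in MYB94 and MYB96, on either strand.
MYB30: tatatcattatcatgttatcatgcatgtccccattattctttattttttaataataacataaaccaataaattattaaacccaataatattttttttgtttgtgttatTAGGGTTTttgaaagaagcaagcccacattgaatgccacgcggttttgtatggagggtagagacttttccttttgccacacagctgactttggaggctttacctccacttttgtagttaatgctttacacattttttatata
MYB94: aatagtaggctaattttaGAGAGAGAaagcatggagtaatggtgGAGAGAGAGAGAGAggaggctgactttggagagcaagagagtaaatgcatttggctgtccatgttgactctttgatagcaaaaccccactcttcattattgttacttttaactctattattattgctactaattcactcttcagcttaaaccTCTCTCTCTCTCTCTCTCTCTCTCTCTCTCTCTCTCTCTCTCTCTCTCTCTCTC
MYB96: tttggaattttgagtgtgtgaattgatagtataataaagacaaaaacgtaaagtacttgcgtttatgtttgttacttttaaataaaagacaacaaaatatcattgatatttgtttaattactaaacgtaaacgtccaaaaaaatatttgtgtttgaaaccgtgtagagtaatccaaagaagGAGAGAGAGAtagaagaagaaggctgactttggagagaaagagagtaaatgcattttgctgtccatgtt

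All 3 windows hold the run gctgactttggag, 13 bases that were picked out after the sequences were read. Among the 250-base windows of all 27444 protein-coding genes, searched on both strands, only these 3 hold it. The windows of MYB31 and MYB60 do not. The run was taken as the longest one shared by these 3 windows, so the count does not test its specificity. The run is a description of shared sequence, and no binding was measured at it.

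Of the 74 members over input, 3 (4.05%) had a telobox in this window, namely MYB30, MYB22 and MYB36, against 4.49% of all protein-coding genes and 6.64% of those over input. None of the 40 other members had one. GA repeats were found at 6 of the 74 (8.11%) and at 4 of the 40 others, against 4.91% of all protein-coding genes. Over 1 kb upstream, telobox shares were 12.2% of the 74 members and 12.4% of protein-coding genes. MYB factors bind AC elements. The form ACCTACC occurred in the 250-base windows of 0 of the 74 members, against 1.16% of protein-coding genes. The form ACCAACC occurred in 1 of them, against 2.69%, and the form ACCTAAC in 3, against 2.46%. Each window was scored once for a motif, on either strand, and the AC forms can overlap one another. No share is read as a difference.

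Other members with lower H3K27me3 in both brm libraries included MYB68 and MYB16. MYB68, a root development gene of S14, had 74.6 and 73.5 RPM in brm, against 92.1 and 119 RPM in wt, a log2 fold change of -0.51 ± 0.19 (adjusted p = 0.505). It passed without wt replicate 1, the wt library nearer to brm. That fit rests on 1 wt library, and nothing is read from it. MYB16, which shapes epidermal cells and the cuticle, had 40.9 and 36.5 RPM in brm, against 48.8 and 51.9 RPM in wt, a log2 fold change of -0.38 ± 0.22 (adjusted p = 0.731). Both genes were fully covered by regions in both genotypes.

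The 5 marked members with both brm libraries above both wt libraries were MYB108, MYB62, MYB34, MYB119 and MYB93. The direction turned at MYB119 with 1 read per position and strand (-0.028) and at MYB93 with the input ratio as an offset (-0.098), where the log2 ratio to input was 2.735 in brm and 2.837 in wt. MYB108, a gene of stamen maturation and senescence, had 96.3 and 116 RPM in brm, against 59.3 and 94.2 RPM in wt. Its log2 fold change was 0.46 ± 0.21 (adjusted p = 0.604, edgeR). Without the higher wt library, replicate 2, it was 0.84, a value that is larger by that choice and rests on 1 wt library. Regions covered 75.8% of MYB108 in brm and 59.97% in wt. MYB62, which acts in the phosphate starvation response, had 45.03 and 38.8 RPM in brm, against 37.7 and 26.5 RPM in wt (0.38 ± 0.26, adjusted p = 0.785). MYB34, which controls indolic glucosinolates, had 61.9 and 47.6 RPM in brm, against 41.3 and 42.6 RPM in wt (0.38 ± 0.22, adjusted p = 0.725). MYB119, a gene of the female gametophyte, had 153 and 167 RPM in brm, against 145 and 146 RPM in wt (0.14 ± 0.16, adjusted p = 0.904). None of these genes passed the test with all 4 libraries.

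**Figure D3:**
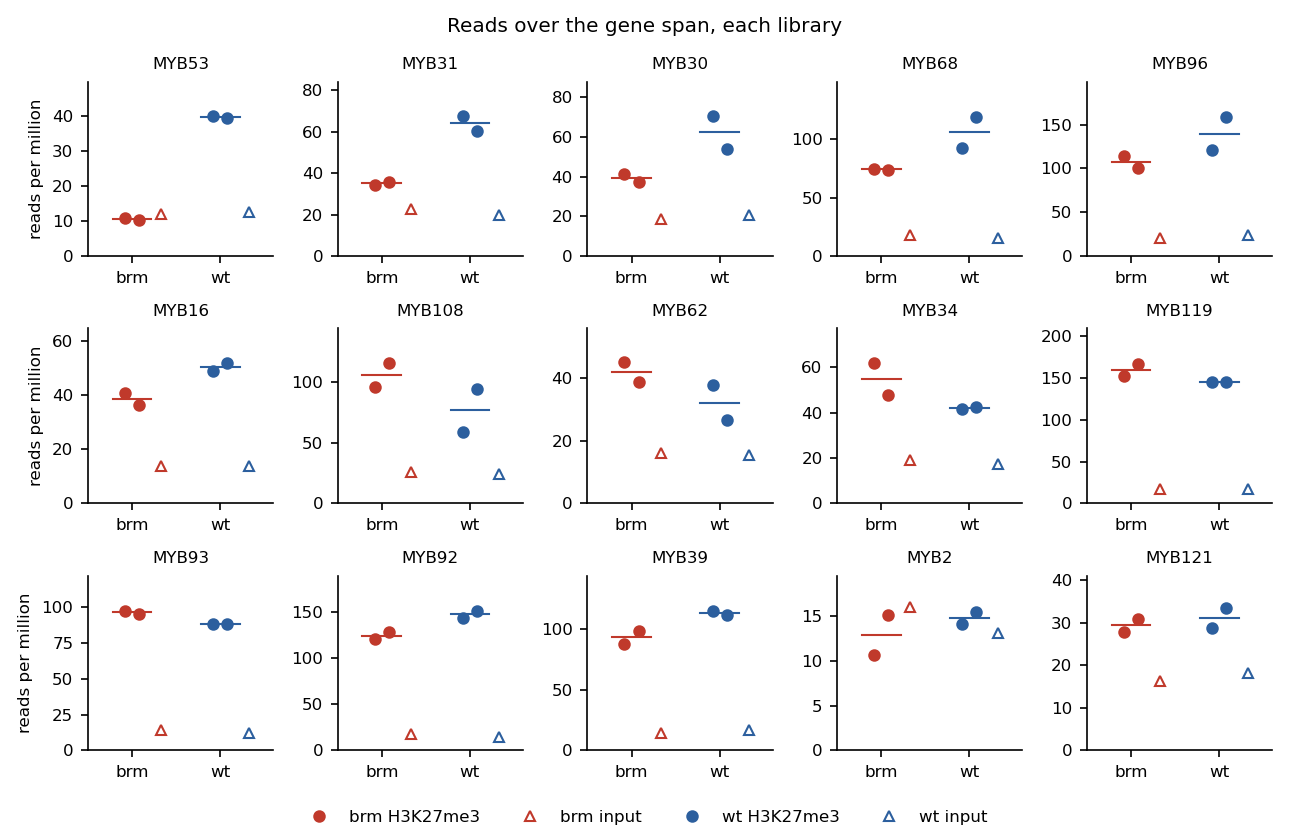
RPM over the gene span in each library of brm (left) and wt (right) for 15 named members, with triangles for the inputs and a line at the mean of 2 libraries; each panel has its own y axis from 0. MYB53 and MYB31 show the widest gaps between the genotypes, and at MYB53 the brm points sit at the inputs.

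Most of the family carried H3K27me3 in these seedlings. Of 114 members, 74 were over input (64.9%, against 19.0% of all genes and 21.0% of protein-coding genes), 25 were under input (21.9%, against 64.3% of protein-coding genes) and 15 were neither. H3K27me3 regions marked 75 members in brm (65.8%, against 23.2% of protein-coding genes) and 76 in wt (66.7%, against 21.9%). In both genotypes 74 were marked, and 45 were covered over their whole span. In neither were 37 marked, and 32 had no covered base in either genotype.

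Marking differed between the genotypes at 3 members. MYB121 was marked only in brm, where regions covered 57.9% of it, against 20.5% in wt. Its reads hardly differed, at 27.7 and 30.9 RPM in brm and 28.8 and 33.4 RPM in wt (log2 fold change -0.09 ± 0.27, adjusted p = 0.977). MYB2, a drought and abscisic acid response gene, was marked only in wt, at 39.5% cover in brm and 52.3% in wt. It had 10.6 and 15.1 RPM in brm and 14.1 and 15.5 RPM in wt, near its inputs of 16.03 in brm and 13.1 in wt, and the genotypes overlapped (-0.20 ± 0.40, adjusted p = 0.957). MYB2 lay close to the 50% threshold in both genotypes. MYB53 was the third, marked only in wt.

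Members over input had a median log2 ratio to input of 2.54 in brm and 2.59 in wt. All protein-coding genes over input had medians of 2.21 in brm and 2.36 in wt. Members under input had medians of -2.58 in brm and -2.37 in wt, and 15 members were in neither group. The groups were defined by their level, so the gap between their medians follows from that choice. The levels of those under input depend on the scaling: relative to reads outside H3K27me3 regions, 89 members were over input, 0 were under, and 33.5% of protein-coding genes were over.

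The 8 highest mean levels were at MYB117, MYB105, MYB36, MYB41, MYB23, MYB24, MYB46 and MYB5. MYB117 and MYB105, which set organ boundaries, had log2 ratios to input of 3.71 and 3.23 in brm, against 3.15 and 3.62 in wt. In brm libraries MYB117 had 205 and 181 RPM, against 173 and 197 RPM in wt, and MYB105 had 138 and 125 RPM in brm, against 146 and 166 RPM in wt. MYB36, which directs Casparian strip formation in root endodermis, had 153 and 151 RPM in brm, against 158 and 163 RPM in wt, over inputs of 13.7 in brm and 16.2 in wt. MYB41, a suberin regulator induced by stress, had log2 ratios of 2.84 in brm and 3.80 in wt, and its inputs were 14.6 RPM in brm and 9.62 RPM in wt, over reads of 105 and 106 RPM in brm and 123 and 148 RPM in wt. The 8 means ran from 3.43 at MYB117 to 3.13 at MYB5, and their order was not resolved: MYB117 alone ran from 3.06 to 3.80 over the 4 libraries.

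The telobox window of MYB36 is shown as that of the most strongly marked of the 3 telobox genes. It spans chr5:23334517-23334766 on the plus strand (RefSeq, TAIR10.1), and capitals mark the telobox, 125 bases before the gene start.
MYB36: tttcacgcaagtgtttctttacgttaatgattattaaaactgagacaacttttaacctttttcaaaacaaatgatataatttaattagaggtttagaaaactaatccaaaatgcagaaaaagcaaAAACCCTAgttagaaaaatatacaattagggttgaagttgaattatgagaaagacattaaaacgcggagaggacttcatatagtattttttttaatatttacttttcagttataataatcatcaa

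The remaining genes of high level act in trichomes, stamens, walls and seeds. MYB23, a trichome gene, had log2 ratios of 3.64 in brm and 2.91 in wt, although its reads overlapped, at 136 and 126 RPM in brm and 111 and 136 RPM in wt. MYB24, a jasmonate-dependent stamen gene, had 3.23 in brm and 3.27 in wt. MYB46, a master switch of the secondary wall, had 3.25 in brm and 3.10 in wt. MYB5, which acts in seed coat and trichomes, had 3.05 in brm and 3.21 in wt. Each log2 ratio rests on 1 input library per genotype.

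The lowest mean levels were at MYB58, MYB6, MYB61, MYB65 and MYB33, from -4.10 to -3.23 on the log2 scale. MYB58, a lignin regulator, had 7 and 35 reads in brm and 1 and 6 reads in wt. MYB6 had 40 and 0 reads in brm and 5 and 14 reads in wt. Such counts moved several-fold between replicates, and nothing is read from their fold changes. MYB33 and MYB65 are GAMYB-type genes of the anther and targets of miR159. MYB33 had 3.13 and 5.23 RPM in brm, against 2.57 and 2.76 RPM in wt and inputs of 29.95 in brm and 32.5 in wt. MYB61, which acts in stomata and xylem, had 1.88 and 0.833 RPM in brm, against 2.34 and 2.43 RPM in wt.

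The subgroups differed widely in how many of their genes carried the mark. Of the 21 numbered subgroups with at least 2 genes, 7 had all their genes over input. These were S6 (anthocyanin regulators MYB90, MYB113 and MYB114), S7 (flavonol regulators MYB11, MYB12 and MYB111), S10, S11, S12 (glucosinolate regulators), S14 (MYB36, MYB68 and relatives) and S19 (stamen genes MYB21, MYB24 and MYB57). Together they hold 26 members. Another 4 numbered subgroups with 13 members had none over input: S3 (lignin regulators), S4 (repressors of phenylpropanoid synthesis), S22 and S23.

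The medians of these subgroups lay far apart. S14 had a median log2 ratio of 2.93 in brm and 2.68 in wt, and S21, with 7 of 8 genes over input, had 2.92 in brm and 3.13 in wt. S22, the stress response group of MYB70, MYB73 and MYB77, had -2.58 in brm and -2.39 in wt. S4 had -2.20 in brm and -1.43 in wt, with 4 of its 5 genes under input. Subgroups are groups of related genes and not replicates, so no test was made between them.

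Several subgroups had a single gene that stood apart. S20 had 5 of 6 genes over input, all but MYB2. S25 had 6 of 7, all but MYB98, a regulator of pollen tube attraction in synergid cells. The secondary wall group had 6 of 7, all but MYB20. S1 had 4 of 5, all but MYB60, and S24 had 3 of 4, all but MYB53, which stood more than 2-fold over input in both wt libraries and in neither brm library. In S13 only MYB86 (1 of 4) and in S9 only MYB16 (1 of 3) was over input. S18, the GAMYB-type group, was split, with MYB81, MYB101 and MYB104 over input and 4 genes not.

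**Figure D4:**
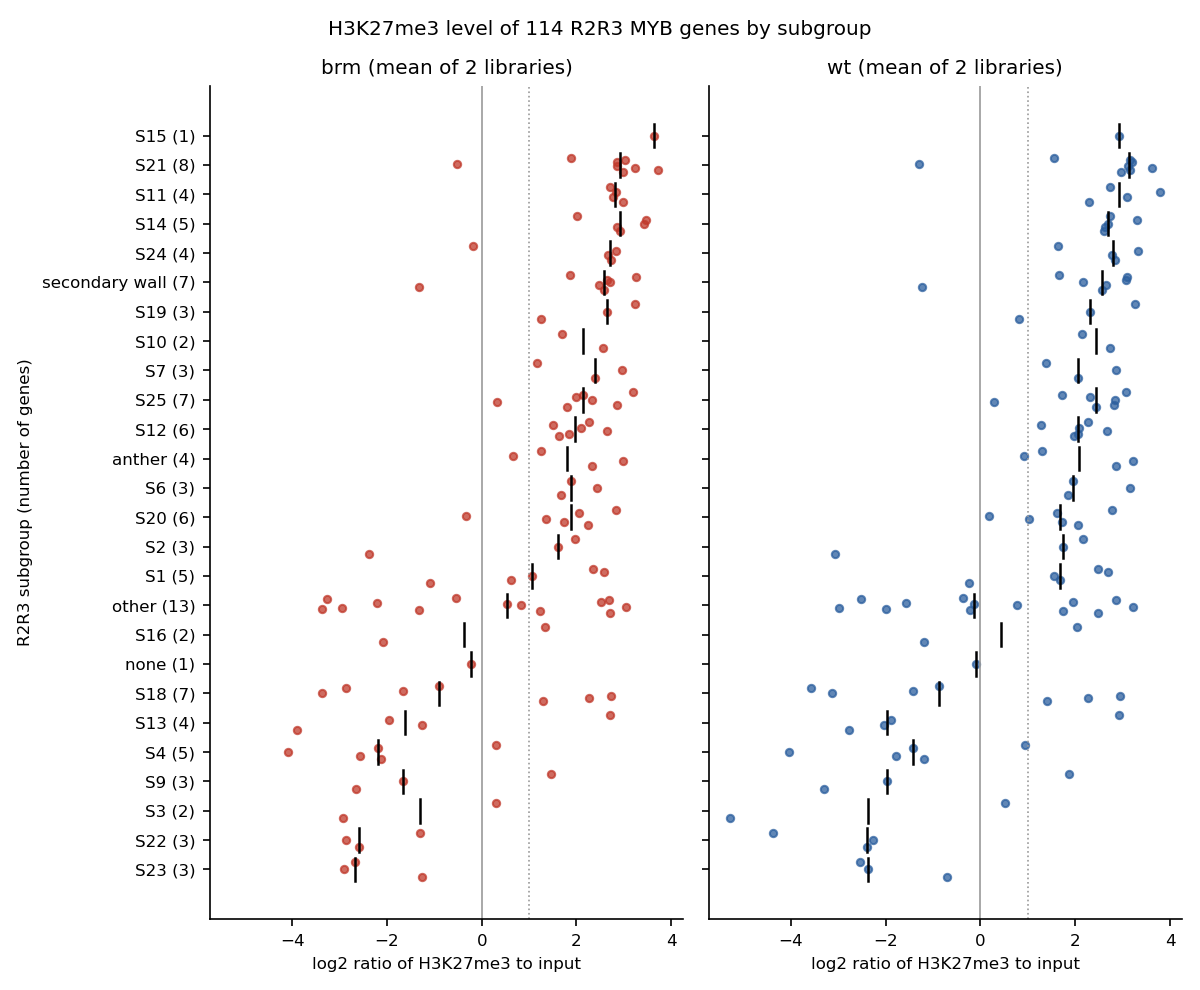
Log2 ratio of H3K27me3 to input for the 114 members by subgroup, in brm (left) and wt (right), 1 point per gene as the mean of 2 libraries; the solid line marks the input level and the dotted line 2-fold over it. Black ticks are medians, and "other" holds 13 members not placed in a subgroup. S14 and S11 lie wholly to the right of the dotted line in both genotypes and S22 wholly to the left of the input level.

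No gene of S12 or S7 was called changed. MYB28, the main regulator of aliphatic glucosinolates, had 88.7 and 97.4 RPM in brm, against 109 and 96.1 RPM in wt. MYB29, with the same role, had 89.6 and 87.5 RPM in brm, against 108 and 74.1 RPM in wt. MYB51, an indolic glucosinolate regulator, had 76.8 and 66.5 RPM in brm, against 87.9 and 93.6 RPM in wt. The genotypes overlapped at MYB28 and MYB29 and not at MYB51. MYB12, which drives flavonol synthesis in roots, had 140 and 151 RPM in brm, against 148 and 165 RPM in wt, and its libraries overlapped. These genes lie outside the rule for named genes and were taken as examples after their values were seen.

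H3K27me3 filled the bodies of the marked members. Over the 74 members over input, regions covered a mean of 95.5% of the gene in brm and 94.2% in wt. In the first 5 of 10 equal parts of the gene the mean signal was 51.3 and 49.7 RPM per kb in brm, against 53.2 and 53.6 in wt. In the last 5 parts it was 49.1 and 50.6 RPM per kb in brm, against 55.6 and 54.2 in wt. The inputs had 8.30 RPM per kb in brm and 8.88 in wt in the first 5 parts, and 9.45 in brm and 9.26 in wt in the last 5. The kb upstream had 27.9 and 28.9 RPM per kb in brm and 27.0 and 24.4 in wt, and the kb downstream 19.02 and 19.03 in brm and 18.9 and 18.9 in wt. The other 5341 protein-coding genes over input and of at least 500 bp had 51.2 and 51.3 RPM per kb in brm in the first 5 parts, against 52.1 and 58.1 in wt, and 41.7 and 41.7 in brm in the last 5, against 42.8 and 46.4 in wt. Their inputs had 9.29 in brm and 8.77 in wt in the first 5 parts, and 8.99 and 8.70 in the last 5. In RPM per kb, the signal of these genes was lower in the last 5 parts than in the first 5. That of the MYB genes was about level. The inputs rose along the MYB genes and fell along the other genes, and profiles relative to input were not compared. The difference between the gene sets was not tested.

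**Figure D5:**
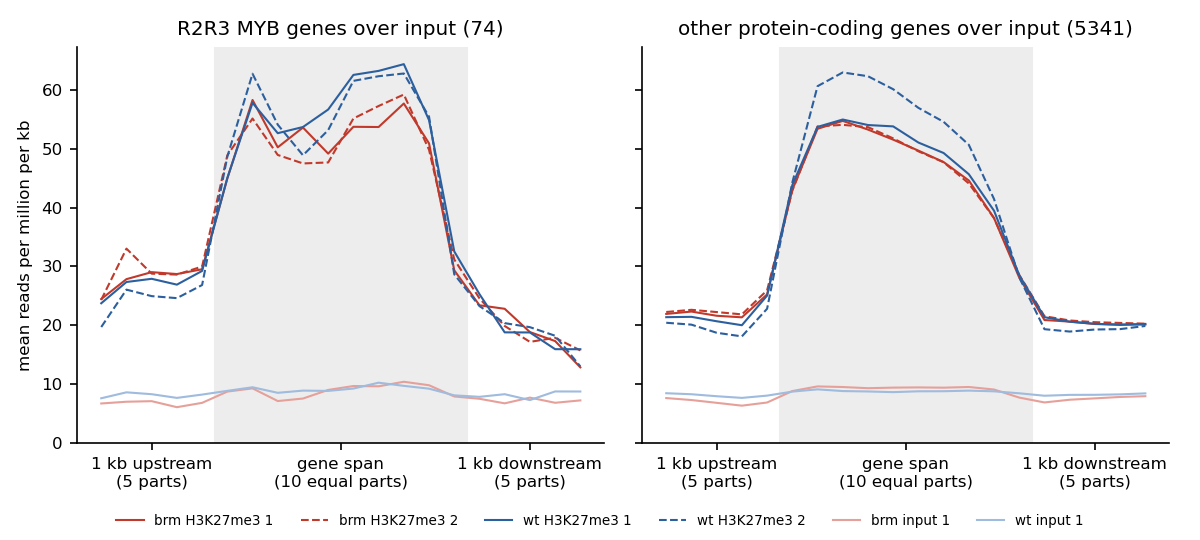
Mean RPM per kb along 1 kb upstream, 10 equal parts of the gene span (grey) and 1 kb downstream, with a line for each library, for R2R3 MYB genes over input (left) and other protein-coding genes over input (right). The MYB lines show no steady decline along the gene in any of the 4 H3K27me3 libraries, and the lines of other genes decline towards its end.

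The regions over the 74 members over input were longer than regions in general. Their median was 5200 bp in brm and 4500 bp in wt, against 2400 bp and 2000 bp for all regions. A region picked for lying over a gene is longer by that choice. Regions over 41 of these members in brm and 44 in wt touched no other protein-coding gene. Paralogs shared a region in places: MYB29 and MYB76, glucosinolate regulators that lie side by side, shared one of 4800 bp in both genotypes. MYB24 and MYB115 shared one of 10000 bp in brm and 10400 bp in wt. The anthocyanin regulators MYB90 and MYB114 shared one of 10000 bp in wt, and in brm they lay in separate regions of 4200 and 4800 bp.

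Most genes next to members over input were not over input, but the share that was exceeded that next to other members. Of the 148 protein-coding genes flanking the 74 members over input, 53 (35.8%) were over input themselves. Of the 80 flanking the other members, 14 (17.5%) were. The shares were 42.6% of the genes flanking all protein-coding genes over input and 14.96% of those flanking all other protein-coding genes. These differences were not tested. Neither neighbour was over input for 29 of the 74. By chromosome, 17 of 26 members on chromosome 1 were over input, 6 of 11 on chromosome 2 and 14 of 27 on chromosome 3. On chromosome 4 it was 9 of 16 and on chromosome 5 it was 28 of 34. Shares of all genes by chromosome were not taken, so nothing is read from these counts. Of all members, 21 overlap another annotated gene and share reads with it, since ChIP reads carry no gene strand.

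Other R2R3 genes and the pathways that members control were read from lists chosen with earlier results known. Of 9 R2R3 genes that carry another symbol, 2 were over input, the anthocyanin regulator PAP1 and the meristem gene RAX2, 6 were under, and 0 were called changed. Over input were 8 of 13 suberin genes and 7 of 12 glucosinolate genes. So were 3 of 10 flavonoid and anthocyanin genes and 3 of 10 secondary wall genes. Of all protein-coding genes, 21.0% were over input and 64.3% under, and no difference is read from the counts of these lists. None of these genes was called changed in the edgeR fit with all reads. With 1 read per position and strand, KCS20, an elongase of suberin fatty acids, and FLS1, flavonol synthase, were called higher and none lower. Of all genes tested in that fit, 0.557% were called higher and 0.511% lower.

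KCS20 had 91.3 and 97.5 RPM in brm, against 46.2 and 71.5 RPM in wt (0.68 ± 0.21, adjusted p = 0.385 with all reads and 0.00485 with 1 read per position, edgeR). FLS1 had 48.8 and 44.8 RPM in brm, against 22.2 and 21.4 RPM in wt (1.10 ± 0.26, adjusted p = 0.129 with all reads and 0.00529 with 1 read per position, edgeR). At both genes the brm libraries lay above the wt libraries without overlap, as they did at 17.4% of all genes tested.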

How the data were processed

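Each line of the deposited files is a mapped read of 37 bp. The authors mapped reads with Bowtie 0.12.7 to TAIR10, kept unique perfect matches and called regions with SICER 1.1. Counts are counts of deposited reads, not normalized by the authors. The deposited score column held only 0 and was left unused.

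Read 5′ ends were shifted by 75 bp and counted over TAIR10.1 gene spans, which are later models than TAIR10. Log2 ratios to input had 0.5 reads added. Regions were called with a rebuilt form of SICER (windows of 200 bp, gaps of 600 bp, 1 read per position and strand, FDR 0.01) in each replicate against its input. Genotypes were compared with edgeR 4.0.16 in R 4.3.3 (library size: all nuclear reads, filterByExpr), and DESeq2 1.42.0 was an alternative. The edgeR fit was tested on simulated data. An exact test of 2 against 2 libraries cannot reach 0.05.

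Members and lists were chosen with earlier results of these data known. Named were members called in either edgeR fit and their subgroups, members marked in 1 genotype only, the 6 largest decreases and up to 6 largest increases among marked members without overlap, and the 8 highest and 5 lowest levels. Others are named where the text says so. Alternatives were other scalings, duplicates, flanks, no shift, an input offset, a replicate block and leaving out libraries.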

Additional observations from a re-analysis of the deposited data

How the results depend on the processing

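Of 346 fold changes of named members under an alternative, 306 kept their direction and side of the threshold, 26 changed sign, 12 passed the threshold newly and 2 no longer passed it. Members called lower numbered 1, against 2 with 1 read per position and strand, 5 with the input ratio as an offset and 0 to 4 without 1 library. Members called higher numbered 0, against 2 with the input offset (MYB23 and MYB37) and 0 to 1 without 1 library. With 1 read per position and strand, leaving out a library, chosen after seeing the data, gave 2 to 5 lower and 0 to 1 higher. MYB53 ranged from -1.96 to -1.39 (adjusted p 1.13e-05 to 0.106) and MYB31 from -1.07 to -0.76 (0.00209 to 0.9998, edgeR or DESeq2). MYB31 passed at 0.0139 with the input offset, and MYB68 at 0.043.

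Deviations of same-numbered libraries were hardly correlated (r = 0.0281 over 30906 genes). Only 6856 of these genes were over input, so this value cannot settle whether the libraries were paired. With a replicate block, 0.304% of all genes were called lower and 0.278% higher, against 0.0971% and 0.0777% without it. The replicate block called 2 members lower, MYB31 among them at 0.0337 (edgeR), and MYB6 reversed to -0.15 and MYB65 to -0.035.

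The median log2 fold change of members was -0.070 with TMM, -0.073 with DESeq2, -0.067 with 500 bp flanks, -0.16 with the input offset and -0.13 to -0.080 without 1 library. The median of all genes was -0.01 with TMM, -0.02 with DESeq2 and -0.13 with the input offset. Members over input numbered 72 to 89 and marked members 68 to 81 in brm and 67 to 81 in wt. Scaling to reads outside regions left 0 under input. Input ratios of named members moved beyond replicate spread in 58 of 240 cases.

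Sign changes concerned fold changes that were not called with all reads. With 1 read per position and strand they were MYB121 0.027, MYB119 -0.028, MYB117 -0.0033, MYB23 -0.057, MYB46 -0.016, MYB65 -0.60 and MYB94 0.023. With the input offset they were MYB121 0.046, MYB93 -0.098, MYB36 0.14 and MYB65 -0.092. Without the shift they were MYB121 0.14 and MYB65 -0.051, and with flanks MYB36 0.0050. Without 1 library the ranges were -0.48 to 0.029 for MYB2, -0.19 to 0.023 for MYB121, -0.028 to 0.16 for MYB117, -0.057 to 0.23 for MYB23, -0.063 to 0.071 for MYB46, -6.23 to 1.95 for MYB6, -0.73 to 0.62 for MYB65 and -0.10 to 0.0034 for MYB94. The causes were not tested.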
